A study of Mus musculus with 2 samples.

Results

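Long noncoding RNA genes were described in mouse fibro/adipogenic progenitors, mesenchymal cells resident in skeletal muscle that give rise to fibroblasts and adipocytes. A gene was counted as long noncoding when none of its listed transcripts was of the protein-coding type and at least 1 was of a long noncoding type (intergenic, antisense, bidirectional promoter, sense intronic, sense overlapping or macro). Of 30491 genes in the deposited table, 4147 met that rule, and 343 of them reached 1 FPKM (fragments scaled to transcript length and library size, summed over the transcripts of a gene) in at least 1 library. Another 1008 were listed at 0 in both libraries and 2796 were above 0 but under 1 FPKM. The 343 genes made up 8.27% of the rule's genes, whereas 66.1% of the 17399 protein-coding genes reached the same level.

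The cells had been sorted freshly from the muscle of wild-type mice and kept in DMEM growth medium with 20% fetal bovine serum and 1% penicillin-streptomycin. They received 1 µM recombinant mouse Musclin, a peptide secreted by muscle that is also called osteocrin, or an equal amount of vehicle, and total RNA was taken after 24 h. Each of the 2 groups has 1 library, so no difference below has a replicate check and no test was made. The column taken for vehicle is named BSA and was assigned by elimination, because the labels do not name the vehicle, and all directions below rest on it. The number of cultures behind a library was not found in the labels or the table.

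Long noncoding RNAs act in several ways. Some stay at their own locus and influence neighbouring genes, some scaffold nuclear bodies, some are precursors whose introns or exons yield small nucleolar RNAs (snoRNAs) or microRNAs, and some are expressed from only the maternal or the paternal chromosome (imprinted). Their levels are usually low and cell-type restricted, and many lie antisense to, or start back to back with, a protein-coding gene.

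Several members carry a microRNA on their own strand: 24 hairpins of the RefSeq table, as far as it is used here, lie within 16 of the 343 genes. A selection of mature sequences from hosts discussed below comes from RefSeq (GRCm38.p6) and is shown because the host transcript is their precursor. Other mature sequences of these hosts, and those within Gm17494, Ftx and Snhg20, are not shown. Capitals mark the seed, bases 2 to 8. No value given here is of a mature microRNA.
H19, miR-675-5p: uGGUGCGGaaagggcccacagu
H19, miR-675-3p: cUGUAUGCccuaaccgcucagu
Mir100hg, miR-100-5p: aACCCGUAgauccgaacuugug
Mir100hg, miR-125b-5p: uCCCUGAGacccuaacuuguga
Dnm3os, miR-199a-5p: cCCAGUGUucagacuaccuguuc
Dnm3os, miR-199a-3p: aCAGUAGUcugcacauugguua
Dnm3os, miR-214-3p: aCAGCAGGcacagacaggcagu
Meg3, miR-770-5p: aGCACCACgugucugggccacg
Rian, miR-370-3p: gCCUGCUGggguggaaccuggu
These 9 mature microRNAs have 9 different seeds. Shared seeds were found elsewhere among the members, with GAGGUAG in let-7c-5p and let-7b-5p within Lncppara and AGCAGCA in miR-15a-5p and miR-16-5p within Dleu2.

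Promoter sequence (250 bases before to 50 bases after a RefSeq start, GRCm38.p6) was found for 175 of the 343 genes. For 108 of those the RefSeq start lay within 100 bases of the start of the member's most abundant transcript. The following 4 are a selection from genes, described below, that differed between the libraries or face a coding gene that differed. Windows of Gm38403, Fgf2os, Gm11419 and Gm31522, which also differed by 2-fold or more, hold none of the letters searched and are not shown. Those of Gm11419 and Gm31522 lie 17145 and 32812 bases from the start of the most abundant transcript. Capitals mark GGGNNTTCC (NF-kB) or CACGTG (E-box), each searched on both strands, and a sequence without capitals holds neither of them nor any of the interferon, cyclic AMP, C/EBP-ATF or AP-1 letters searched.
Gm32856, chr8:129263380-129263679, plus strand: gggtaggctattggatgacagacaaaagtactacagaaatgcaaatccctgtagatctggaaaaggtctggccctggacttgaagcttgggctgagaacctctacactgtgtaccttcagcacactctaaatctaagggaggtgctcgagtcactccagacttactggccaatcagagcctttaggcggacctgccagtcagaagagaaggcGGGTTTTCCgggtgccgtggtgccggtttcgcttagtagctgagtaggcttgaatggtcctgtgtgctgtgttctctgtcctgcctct
D030025P21Rik, chr12:84875552-84875851, plus strand: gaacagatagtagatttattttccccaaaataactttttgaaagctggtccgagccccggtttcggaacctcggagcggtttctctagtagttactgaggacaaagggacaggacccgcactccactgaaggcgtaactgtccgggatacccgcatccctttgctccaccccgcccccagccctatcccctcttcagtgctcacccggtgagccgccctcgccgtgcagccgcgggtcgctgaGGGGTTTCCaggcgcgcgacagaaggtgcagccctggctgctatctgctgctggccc
U90926, chr5:92215359-92215658, minus strand: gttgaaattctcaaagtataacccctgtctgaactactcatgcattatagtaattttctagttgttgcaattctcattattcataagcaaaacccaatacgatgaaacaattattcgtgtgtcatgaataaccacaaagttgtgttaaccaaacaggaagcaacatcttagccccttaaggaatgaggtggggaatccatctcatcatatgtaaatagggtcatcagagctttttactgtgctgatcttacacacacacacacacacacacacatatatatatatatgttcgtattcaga
Ptgs2os, chr1:150099825-150100124, minus strand: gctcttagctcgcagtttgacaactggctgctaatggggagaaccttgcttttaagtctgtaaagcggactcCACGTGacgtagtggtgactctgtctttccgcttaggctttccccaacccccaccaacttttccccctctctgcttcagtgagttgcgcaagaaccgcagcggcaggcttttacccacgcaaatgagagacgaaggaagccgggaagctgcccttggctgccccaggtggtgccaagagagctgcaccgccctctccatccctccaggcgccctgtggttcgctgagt
The NF-kB letters began 38 bases before the start of Gm32856 and 7 bases before that of D030025P21Rik, and the E-box began 178 bases before the start of Ptgs2os. Among the members' promoters GGGNNTTCC was matched in 18 of 175 (10.3%), against 6.88% of the 15680 promoters of all genes of the table. CACGTG was matched in 11.4% and 8.87%. TGANTCA (AP-1) was matched in 9.14% and 6.15%, TGACGTCA (cyclic AMP response element) in 7 of 175 and 2.76%, GAAA and GAAA with any 2 bases between them (interferon-stimulated response element core) in 1.71% and 3.16%, and TGATGNAA (C/EBP-ATF) in 0.571% and 2.85%. GGGCGG (GC box) was matched in 50.3% and 54.1%, and ACGTG (hypoxia response element core, which overlaps the E-box) in 27.4% and 23.1%. A match of letters is a description of the window and does not show binding.

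The libraries were of near-equal depth, with 22456674 fragment equivalents for Musclin and 22677050 for vehicle, as recovered from the steps of the FPKM values. Markers of the sorted cells were abundant, with Pdgfra at 87.2 FPKM for Musclin and 79.9 for vehicle, Ly6a at 284 and 223, and Col1a1 at 345 and 361. The other 3 of the 6 listed differed more: Dcn was 2-fold or more higher with Musclin (181 and 64.8), Cd34 was just short of that (29.7 and 14.5), and Osr1 was 2-fold or more lower (15.1 and 34.8). Of 5 listed myogenic markers only 3 were found in the table, and these stayed under 1.3 FPKM, as 3 of 3 endothelial markers did under 1.2 FPKM. Of 4 leukocyte markers Cd68 was at 3.03 and 2.86 FPKM, Ptprc at 0.383 and 0.644, and Adgre1 and Itgam below Ptprc. Adipocyte markers were present and lower with Musclin in 3 of 3 cases, with summed levels of 129 FPKM against 193. Mural markers were lower in 2 of 3 cases and summed to 17.2 FPKM against 25.8. In bulk RNA, fewer cells of a type and less RNA per cell cannot be told apart.

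The 343 genes were short, low and mostly of few exons. Their median level over both libraries was 1.63 FPKM, against 10.3 for protein-coding genes at the same floor. The most abundant transcript had a median length of 1291 bases and 2 exons, against 3021 bases and 9 exons in coding genes, and it was a single exon in 65 members. By class there were 166 intergenic genes, 132 antisense genes, 19 with a bidirectional promoter, 16 sense intronic, 3 sense overlapping and 7 of several classes. The X chromosome held 7 of them and the Y chromosome 3.

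Of the 343, 240 reached 1 FPKM in both libraries, 54 only with Musclin and 49 only with vehicle. At the floor itself, Gm9917 (1.00 FPKM with Musclin, 0.820 with vehicle), Gm49223 (1.00 and 0.544) and Gm16229 (0.624 and 1.00) were just inside. Just outside were 4930447F24Rik (0.984 and 0.699), 4930558J18Rik (0.493 and 0.997) and Gm26944 (0.716 and 0.998).

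A few genes held much of the signal: the top 10 carried 42.8% of the members' summed FPKM with Musclin and 41.5% with vehicle. AI506816 was the most abundant, at 140 FPKM with Musclin and 166 with vehicle. It was followed by Mir100hg, host of miR-100 and miR-125b, at 119 and 108, and by Malat1, a nuclear speckle RNA, at 95.2 and 90.0. Rian stood at 74.8 and 41.7. Gm42047 (57.3 and 51.5) shares 95.8% of the length of its most abundant transcript with other genes at 95% identity or more, so its level is uncertain. Meg3 shares 53.3% in the same way, with Gm27000, 2900097C17Rik (47.9 and 44.4) shares 51.6%, and AI506816 48.0%. The remaining abundant members were Gas5 (44.0 and 58.4), 1110038B12Rik (33.2 and 38.5), 3300005D01Rik (38.9 and 31.3), Gm48529 (29.995 and 36.8), Meg3 (31.3 and 20.3) and Snhg1 (14.02 and 24.7). Except for Rian, Meg3, Gas5 and Snhg1, described below, these differed by less than 1.3-fold in FPKM between libraries. The transcripts of Gm48529 went opposite ways. Its single-exon transcript was at 21.9 FPKM with Musclin and 36.5 with vehicle, from 1144 and 1929 fragments. Its 3-exon transcript was at 8.11 and 0.229, from 127 and 3.61 fragments, so the fold of the gene depends on the measure.

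Few long noncoding RNA genes differed by 2-fold or more, measured as log2((Musclin FPKM + 1) / (vehicle FPKM + 1)). Of 343, 6 were higher with Musclin and 6 were lower, which is 3.50%. Over all 12884 genes at the same floor 1.71% were higher, 1.52% were lower and 3.23% passed in either direction. The members' pooled share lay near that background, but members were lower in level, where the added 1 holds ratios back. At 1 to under 2 FPKM 1.64% of members and 1.62% of coding genes passed, and at 2 to under 5 FPKM 4.12% and 3.38%. At 5 to under 20 FPKM 8.0% of 50 members and 2.52% of coding genes passed, and at 20 or more 7.69% of 13 members and 4.43%. Gm17494 and Gm10076, whose levels are uncertain as described below, are among these. With 0.1 in place of 1 added, 48 members (13.99%) and 5.9% of all genes passed, 27 members higher and 21 lower. Members rested on a median of 104 fragments over both libraries, against 1145 for all genes. The shares at 0.1 are thus not matched in level or in counting error. The median log2 ratio was -0.026 for the members and -0.024 for all genes, and 163 members lay above 0 and 180 below. The 95% counting interval of the aligned-base ratio, which covers counting error only, excluded 1 for 114 members (33.2%), against 57.7% of all genes. That share depends on the number of fragments. At 1 to under 2 FPKM it was 21.3% of members and 40.7% of coding genes, and at 20 or more 92.3% and 77.6%.

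**Figure D1:**
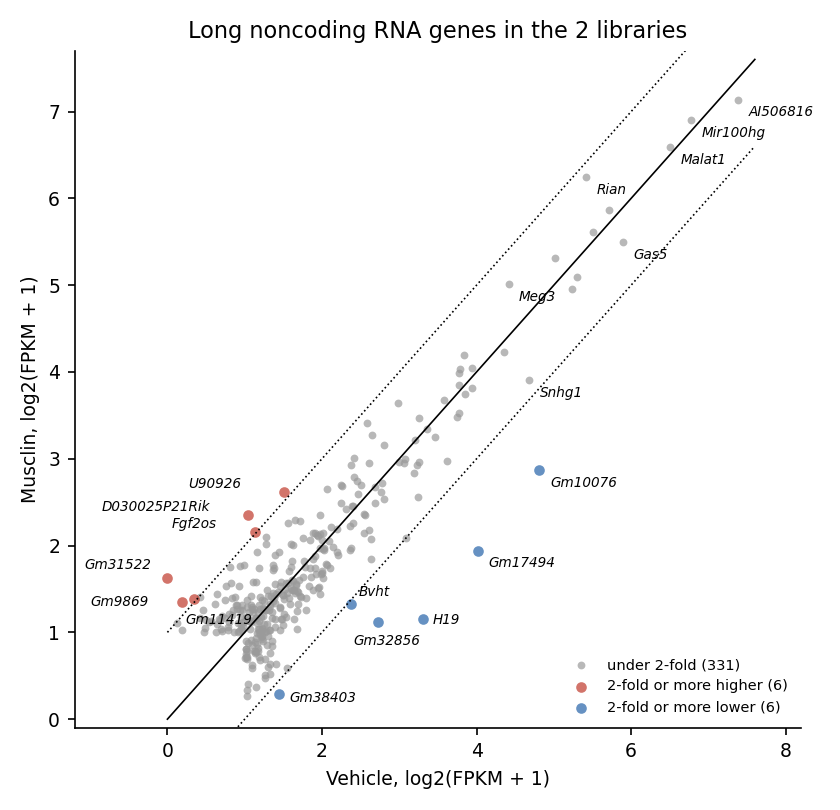
Level of each of the 343 long noncoding RNA genes with vehicle (x) and with Musclin (y), both as log2(FPKM + 1), 1 library per group. The solid line marks equal levels and the dotted lines a 2-fold difference on this scale, with 6 genes above the upper line and 6 below the lower line.

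The gene lowest with Musclin was H19, an imprinted maternally expressed RNA that hosts miR-675 and is known from embryonic muscle. It stood at 1.22 FPKM with Musclin and 8.87 with vehicle, resting on 61.5 and 459 fragments. The log2 ratio was -2.15, and the aligned-base ratio was 0.135 (95% counting interval 0.101 to 0.176). The lone abundant transcript, of 5 exons and 2286 bases, spans chr7:142575529-142578143 (GRCm38, minus strand), and it shares no stretch of 100 bases or more with another gene at 95% identity. In the authors' deposited table this transcript has a fold of 0.134 and a q-value of 2.55e-32, which compares these 2 libraries and not the conditions.

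Gm17494 and Gm10076 were also lower, but each shares sequence with a highly expressed coding gene. Gm17494 (chr3, antisense to Gclm) stood at 2.84 FPKM with Musclin and 15.1 with vehicle, a log2 ratio of -2.07. Of its most abundant transcript, 40.8% matches other genes, with a stretch of 735 bases that is 99.6% identical to Ppia, the gene of cyclophilin A. Ppia itself stood at 400 FPKM with Musclin and 155 with vehicle, the opposite direction.

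Gm10076 (chr14) stood at 6.29 FPKM with Musclin and 27.1 with vehicle, a log2 ratio of -1.95. All 383 bases of its transcript align with a transcript of Rpl41, a ribosomal protein gene, and 381 are identical. A 30-base window of each transcript is shown, because so few differences separate the reads of the 2 genes. Capitals mark the base that differs.
Gm10076: ccaagtaagccagccTgtgcacctacgacg
Rpl41: ccaagtaagccagccCgtgcacctacgacg
Rpl41 was at 163 FPKM with Musclin and 132 with vehicle. Neither the labels nor the table say how reads of such shared sequence were divided, so the levels of Gm10076 and Gm17494 are uncertain. The part of the shared sequence in these differences was not tested.

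The other 3 lower genes were of modest level. Gm32856 (chr8), whose promoter is shown above, stood at 1.17 FPKM with Musclin and 5.61 with vehicle, and both of its transcripts were lower (0.618 against 4.02 and 0.548 against 1.59). Its aligned-base ratio was 0.262 (0.195 to 0.348), and 24.2% of its most abundant transcript matches 2 other genes at 95% identity or more. Gm38403 (chr10) stood at 0.225 and 1.73 FPKM, from 11.9 and 92.4 fragments. Bvht, known as Braveheart from mouse cardiac commitment, stood at 1.51 and 4.17 FPKM, a log2 ratio of -1.04. Its 2 transcripts went opposite ways, at 0 against 3.47 FPKM and at 1.51 against 0.700. Carmn, the neighbouring host of miR-143 and miR-145 known from smooth muscle, was at 1.86 and 2.84 FPKM with a log2 ratio of -0.43, short of 2-fold. The summed mural markers were also lower with Musclin, as given above, and their part was not tested.

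Among the 6 higher genes, Gm31522 and Gm11419 lie in the region of the chemokine gene Ccl2 on chromosome 11. Gm31522 (chr11:81983119-82019967, minus strand) stood at 2.09 FPKM with Musclin, from 35.8 fragments, and was listed at 0 with vehicle. Against a floor of 3 fragments in the vehicle library it was at least 12.1-fold higher. Gm11419 (chr11:81985406-81988769, plus strand) lies within that span on the opposite strand and stood at 1.60 and 0.270 FPKM, from 24.6 and 4.18 fragments, an aligned-base ratio of 5.94 (2.18 to 25.0). Gm31522 starts 15604 bases and Gm11419 50165 bases from the start of Ccl2, which stood at 693 FPKM with Musclin and 85.5 with vehicle. Without strand information the reads of Gm31522 and Gm11419 cannot be told apart where they overlap.

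D030025P21Rik showed the highest log2 ratio among members above 0 FPKM in both libraries, 1.31, with 4.11 FPKM with Musclin and 1.06 with vehicle. It lies antisense to the start region of Ltbp2, a matrix protein gene at 265 and 242 FPKM. Its 2 single-exon transcripts share a start and went opposite ways: the shorter was at 3.82 FPKM against 0.0379 and the longer at 0.288 against 1.02. The aligned-base ratio of the gene was 2.45 (1.93 to 3.16).

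U90926, an RNA reported in mouse adipocyte differentiation, stood at 5.12 FPKM with Musclin and 1.85 with vehicle (log2 ratio 1.10, aligned-base ratio 2.71, 1.63 to 4.64). That difference came from the transcript typed as processed transcript (4.03 against 1.01), while the transcript typed as intergenic was at 0.706 and 0.839. With transcripts of a long noncoding type only, its log2 ratio was -0.11, so its direction depends on which transcripts are summed.

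Fgf2os and Gm9869 are antisense to genes that were themselves higher. Fgf2os stood at 3.46 FPKM with Musclin and 1.20 with vehicle (aligned-base ratio 2.88, 1.998 to 4.29), and Fgf2, a fibroblast mitogen, at 113 and 72.3. Gm9869 stood at 1.55 and 0.142 FPKM, from 23.6 and 2.18 fragments, and Uaca on the other strand at 18.1 and 10.3. Neither the labels nor the table say whether the libraries kept strand, so antisense and sense reads cannot be told apart.

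**Figure D2:**
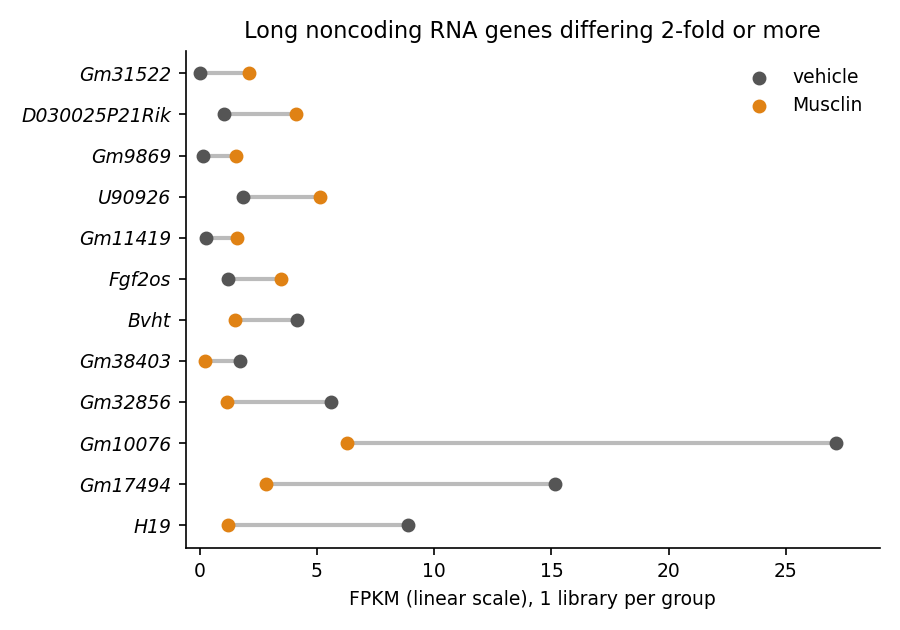
FPKM of the 12 long noncoding RNA genes that differed 2-fold or more, ordered by log2 ratio, with vehicle in grey and Musclin in orange, 1 library per group. The largest gaps in FPKM are those of Gm10076 (27.1 to 6.29) and Gm17494 (15.1 to 2.84), which share sequence with coding genes, followed by H19 (8.87 to 1.22).

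Below the 2-fold line, members at 5 FPKM or more with the largest positive log2 ratios were Gm20186 (9.68 FPKM with Musclin against 4.97 with vehicle), Rian, Dubr, Ptgs2os2, Snhg18, Meg3, 9230114K14Rik (5.30 against 3.18), Dnm3os, F730043M19Rik (5.49 against 3.75), Junos (5.45 against 3.79) and Gm26737 (5.89 against 4.33). Gm20186 matches other genes over 100% of its most abundant transcript. On the lower side came Snhg12, 5430416N02Rik (2.60 against 5.21), Snhg1, Morrbid, Snhg17, Rab10os (3.20 against 5.18), Gm16536 (3.53 against 5.10) and Gas5. Of the 12 lowest genes at this level, 4 were on the list of snoRNA hosts, as were 10 of all 63 members at this level (15.9%).

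The snoRNA host genes yield, from their introns, the small RNAs that guide modification of ribosomal RNA. Of 17 measured genes on the host list, 14 had a log2 ratio below 0 and none reached 2-fold, with a median of -0.20, against -0.024 for all genes, of which 6845 of 12884 lay below 0. Snhg12 was lowest, at 3.26 FPKM with Musclin and 7.47 with vehicle (log2 ratio -0.99, aligned-base ratio 0.598, 0.463 to 0.780). Snhg1 stood at 14.02 and 24.7 (log2 ratio -0.78, aligned-base ratio 0.734), and Snhg17 at 6.88 and 11.3 (-0.64 and 0.628). Dancr, a low host, stood at 0.329 and 1.06, and Epb41l4aos at 1.71 and 2.94. Gas5, named for its accumulation in growth-arrested cells, stood at 44.0 and 58.4 (-0.40), but its aligned-base ratio was 0.930 (0.863 to 1.003), an interval that includes 1. Snhg18 was the highest on the list, at 7.08 and 4.31 FPKM (log2 ratio 0.60, aligned-base ratio 1.64, 1.33 to 2.04). Rian, which also hosts snoRNAs but stands on the list of imprinted RNAs, was higher still, as given with that list.

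The remaining hosts were nearer to equal. They were 1110038B12Rik, Snhg15 (4.10 against 4.90), Snhg5 (8.53 against 9.98), Snhg8 (4.13 against 4.83), Snhg6 (5.11 against 5.79), Zfas1 (12.4 against 13.4), Snhg4 (9.15 against 9.26), Snhg14 (1.39 in both), Snhg20 (1.76 against 1.70) and Snhg16 (3.63 against 3.33). Proteins of the snoRNA particles were lower in 9 of 11 cases, with a median log2 ratio of -0.28. Dkc1, the pseudouridine synthase, stood at 17.3 and 24.5 FPKM, Nop58 at 25.0 and 34.2, Nop56 at 61.5 and 82.8, and Naf1 at 6.55 and 8.39.

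**Figure D3:**
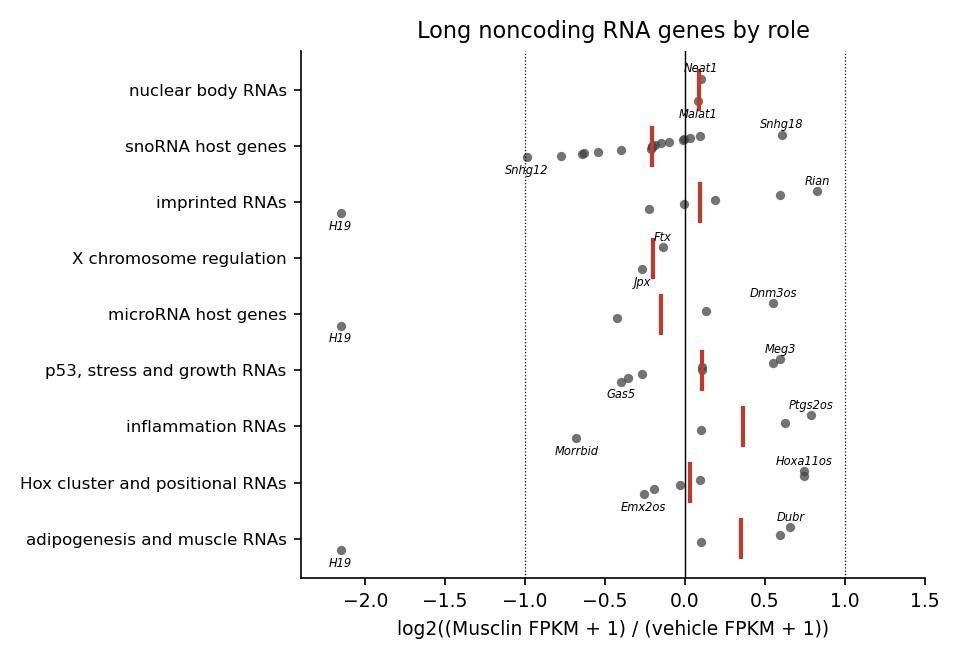
Log2 ratio (Musclin against vehicle, FPKM + 1) of each measured long noncoding RNA gene in 9 role lists, with the lowest and highest member named, the median as a red bar and dotted lines at 2-fold. H19 is the only list member past 2-fold, and 14 of 17 snoRNA hosts lie left of 0.

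Within the hosts, the kinds of transcript differed. This split was chosen after the values had been seen. Transcripts that retain an intron were summed apart from all others in the 9 hosts that list a retained-intron transcript. In 9 of 9 the other transcripts had the lower log2 ratio, with a median of -0.74, against 0.054 for the retained-intron transcripts. In Dancr and Snhg17 those others include a single-exon transcript, and with multi-exon transcripts only the count was again 9 of 9, with a median of -0.69. In the 32 other members with a retained-intron transcript, 17 had the lower ratio in the transcripts without one and the medians were -0.010 and -0.0058. Rian, counted among those 32, went the other way, with 0.83 for transcripts without a retained intron and 0.015 for the retained-intron transcript. That retained-intron transcript of Rian was at only 0.0594 FPKM with Musclin and 0.0487 with vehicle. Retained-intron sums were also near 0 in Gm45338 (0.000385 and 0.0185) and Gm17494 (0.00937 and 0), among others. With 1 added, such ratios lie near 0 at any fold, so the medians of the 32 are no comparison matched in level to the hosts.

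In Gas5 the spliced transcripts, here those of several exons with no retained intron, summed to 7.51 FPKM with Musclin and 23.3 with vehicle, from 89.3 and 284 fragments, while the retained-intron transcripts were at 36.5 and 35.2. The retained-intron share of its FPKM was 82.9% with Musclin and 60.2% with vehicle. In Snhg1 the spliced sum was 4.02 against 13.5 and the retained sum 9.997 against 11.2. In Zfas1 the spliced sum was 1.64 against 3.63 and the retained sum 10.8 against 9.75. In Snhg8 the spliced sum was 0.957 against 2.64, from 9.79 and 27.1 fragments, and the retained sum 3.17 against 2.19. Multi-exon sums were lower with Musclin in each of the 9 hosts, and in Dancr they rest on 1 transcript listed at 0 with Musclin and 0.410 with vehicle. Snhg12 lists no retained-intron transcript, but its 5-exon transcript was at 0.515 against 3.90 FPKM while a longer 4-exon transcript was at 1.39 in both. The split of reads among overlapping transcripts is the authors' estimate.

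The authors' deposited table marks 4 of these host transcripts as significant, all of them spliced and lower: 1 of Snhg1 (fold 0.171), 2 of Gas5 (folds 0.343 and 0.365) and 1 of Zfas1 (fold 0.484). Snhg1, Gas5 and Zfas1 list 4, 5 and 2 transcripts without a retained intron and 14, 20 and 4 with one. Of all 88702 transcripts 3.42% are marked. The marks rest on the same 2 libraries and values, so they are no separate check of the split. Spliced host RNAs are known substrates of nonsense-mediated decay. The 14 genes of decay factors had a median log2 ratio of 0.012. Among them were Upf3a at 13.4 and 9.50 FPKM, Rbm8a at 8.53 and 6.20, Smg9 at 7.66 and 10.8, and Smg5 at 23.2 and 28.03. RNA levels of these factors do not measure decay, and the part of decay in the lower spliced transcripts was not tested.

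**Figure D4:**
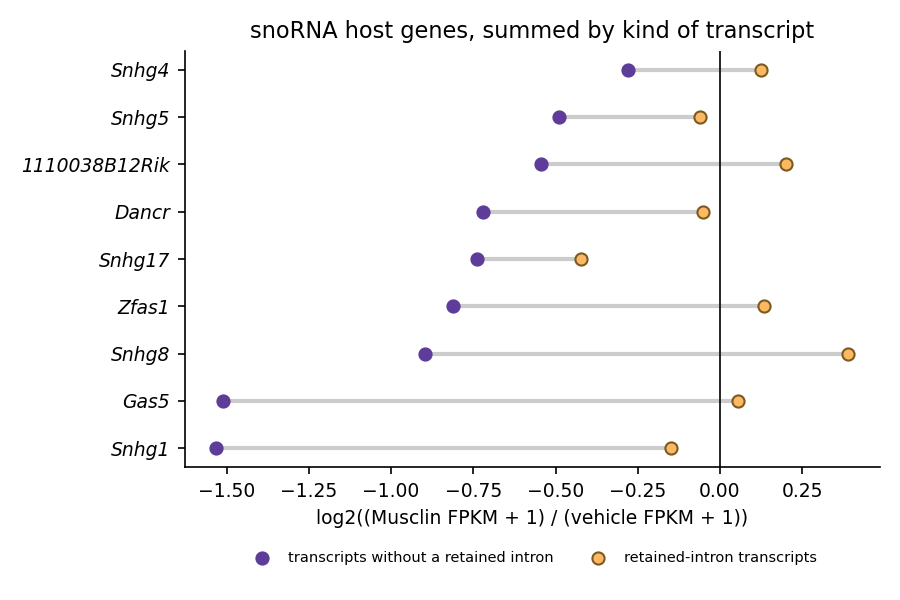
Log2 ratio (Musclin against vehicle, FPKM + 1) of the summed transcripts without a retained intron (purple) and with one (orange) in the 9 snoRNA host genes that list both kinds. The purple point lies left of the orange point in each gene, and Snhg1 and Gas5 have the lowest purple values.

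The start sites of the hosts were searched for a C followed by pyrimidines (a terminal oligopyrimidine start), which is known from translation genes. The 30 bases from 10 before to 20 after the RefSeq start are shown for 4 of the hosts with a match. The run of C followed by 4 or more pyrimidines is in capitals.
Gas5: ccatctcagCCTTTCggagctgtgcggcat
Snhg12: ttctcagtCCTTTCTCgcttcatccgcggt
Snhg8: gttcagaagtCTCTTTggctgcgatccgcc
1110038B12Rik: gcacacgggtCTCTTTgtgcacccgcccac
Such a run began within 10 bases of the start in 7 of 14 hosts with a promoter in the table, in 33.7% of the members' promoters and in 32.2% of all promoters. Such a run is thus common among promoters in general. Snhg1, Snhg17 and Dancr, which were among the lower hosts, hold no such run that begins within 10 bases of the start. In Dancr a run begins farther downstream. Snhg18, the highest host on the list, holds one within 10 bases.

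Of the imprinted RNAs, 6 of 15 listed were measured, 3 above 0 and 3 below. Meg3 and Rian come from the Dlk1-Dio3 cluster on chromosome 12, whose noncoding RNAs are expressed from the maternal chromosome and whose Dlk1 is expressed from the paternal one. Rian, a host of snoRNAs and microRNAs, stood at 74.8 FPKM with Musclin and 41.7 with vehicle (log2 ratio 0.83, aligned-base ratio 1.76, 1.67 to 1.86). Meg3 stood at 31.3 and 20.3 (log2 ratio 0.60, aligned-base ratio 1.42, 1.33 to 1.52). Mirg from the same cluster was under the floor, at 0.849 and 0.759. Dlk1, an inhibitor of adipogenesis, went the other way, at 6.18 and 10.3 FPKM, and Dio3 stood at 35.1 and 28.5.

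H19, described above, and Igf2 share an imprinted domain on chromosome 7, and Igf2 stood at 1.44 FPKM with Musclin and 3.11 with vehicle. Airn, the antisense RNA that silences Igf2r on the paternal chromosome, stood at 1.76 and 2.22, Peg13 at 5.46 and 4.68, and Snhg14 at 1.39 in both. Imprinted coding genes had a median log2 ratio of -0.083 over 12 measured, and 1 of them was past 2-fold, Dcn, at 181 and 64.8. Grb10 stood at 36.5 and 72.5, Gnas at 453 and 285, and Plagl1 at 4.82 and 8.21.

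Among nuclear body RNAs, Neat1, the scaffold of paraspeckles, stood at 11.8 FPKM with Musclin and 10.9 with vehicle, a log2 ratio of 0.099. Its transcripts differed in direction. The long transcript of 20771 bases, the form that builds paraspeckles, was at 5.66 against 8.45, and a transcript of 3004 bases that begins beside it was at 6.03 against 2.06. Measured in aligned bases, which weight the long transcript more, Neat1 was lower, with a ratio of 0.745 (0.711 to 0.781), so its direction depends on the measure. Malat1 differed little, with an aligned-base ratio of 1.06 (1.03 to 1.08). Paraspeckle proteins had a median log2 ratio of 0.026 over 10, with Rbm14 at 14.9 and 6.96 FPKM, Smarca4 at 40.2 and 32.6, Sfpq at 64.4 and 53.9, and Cpsf6 at 16.9 and 19.2.

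Inflammation-linked RNAs were measured for 4 of 14 listed, 3 above 0. Among these 3 is Neat1, given above, whose log2 ratio was 0.099 in FPKM but -0.42 in aligned bases. Ptgs2os starts 214 bases from Ptgs2, the inducible cyclooxygenase, on the other strand. It stood at 2.42 FPKM with Musclin and 0.979 with vehicle (log2 ratio 0.79, aligned-base ratio 2.44, 1.81 to 3.34), and Ptgs2 stood at 165 and 46.1. Ptgs2os2, from the same region, stood at 8.69 and 5.27 (aligned-base ratio 1.65, 1.38 to 1.97). Morrbid, which in mouse leukocytes restrains the death gene Bcl2l11, was lower, at 4.91 and 8.47 (log2 ratio -0.68, aligned-base ratio 0.551, 0.463 to 0.655).

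MicroRNA hosts were measured for 4 of 19 listed. Beside H19 and Carmn they were Mir100hg, near equal, and Dnm3os, host of miR-199a and miR-214 known from fibroblasts, at 6.61 FPKM with Musclin and 4.19 with vehicle (aligned-base ratio 1.58, 1.44 to 1.73). Dubr, an RNA known from myogenic differentiation and the highest of the adipogenesis and muscle list, stood at 11.5 and 6.93 (log2 ratio 0.66, aligned-base ratio 1.63, 1.43 to 1.85).

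Growth and stress RNAs had a median log2 ratio of 0.11 over 7 measured. Pvt1, the neighbour of Myc, stood at 6.16 FPKM with Musclin and 8.17 with vehicle (aligned-base ratio 0.642, 0.530 to 0.775), Oip5os1 (Cyrano) at 10.2 and 12.5, and Lncpint at 1.99 and 1.78. Of the X-chromosome regulators, Ftx stood at 1.79 and 2.07 and Jpx at 0.685 and 1.03.

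Positional RNAs were measured for 6 of 18 listed, 3 above 0. Hoxa11os stood at 3.06 FPKM with Musclin and 1.42 with vehicle (aligned-base ratio 2.004, 1.38 to 2.98), and Fendrr, which starts back to back with Foxf1, at 1.25 and 0.345 (3.79, 2.23 to 7.26). Both stayed under 2-fold on the log2 scale with 1 added. Hotair stood at 1.06 and 0.928, Hotairm1 at 1.23 and 1.55, Hoxd3os1 at 1.26 and 1.31, and Emx2os at 1.03 and 1.43.

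Coding neighbours were looked up for each member: 148 overlapped a coding gene on the other strand, 22 on the same strand, 42 started divergently within 2000 bases, 71 had their nearest coding start within 50000 bases and 60 had none. Distances were taken between the starts of the most abundant transcripts. Across 252 members whose neighbour reached 1 FPKM, the log2 ratios correlated with Pearson's r = 0.43 and Spearman's rho = 0.36, and 59.1% had the same sign. By class, r and rho were 0.46 and 0.40 for 134 opposite-strand overlaps, 0.54 and 0.60 for 19 same-strand overlaps, 0.48 and 0.47 for 41 divergent starts, and 0.44 and 0.22 for 58 nearest starts. The share with the same sign was 61.2%, 57.9%, 70.7% and 46.6% in that order. Among 3697 pairs of protein-coding genes with neighbouring starts, r was 0.14, rho was 0.11 and 54.6% had the same sign. Those pairs were taken by nearest start within 50000 bases alone, so they are not a like set to the pooled members. The members' nearest starts had a smaller share with the same sign than the coding pairs. Whether the libraries kept strand is not known, so a member that overlaps its neighbour may share reads with it. These are correlations across genes of the same 2 libraries, and genes are not independent replicates.

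For the 12 highest and 12 lowest members at 5 FPKM or more, the coding neighbours were followed in both libraries. Mrpl23, nearest to H19, stood at 12.4 FPKM with Musclin and 13.1 with vehicle, and Gclm, which overlaps Gm17494 on the other strand, at 38.7 and 47.2. Lsm8, divergent from Gm20186, stood at 7.51 and 9.26, and Dhx15, divergent from 9230114K14Rik, at 80.3 and 85.8. Sec31a, nearest to 5430416N02Rik, went the other way from its neighbour, at 95.02 and 71.4. Dnm3, which overlaps Dnm3os on the other strand, stood at 1.39 and 0.313, and Jun, which overlaps Junos likewise, at 25.3 and 26.4. Of the neighbours of these members, Slc3a2 beside Snhg1 was the only one past 2-fold, and those not named here had log2 ratios between -0.25 (Zbtb37 at Gas5) and 0.44 (Rab42 near Snhg12). Rian, Dubr, Ptgs2os2, Meg3, Gm10076 and Morrbid have no coding start within 50000 bases of the start of their most abundant transcript, although other transcripts of Rian begin nearer to the coding gene Rtl1.

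A neighbour itself differed by 2-fold or more for 17 members, and 14 of those members had the neighbour's sign, although only Gm31522 was past 2-fold itself. Has2os stood at 1.00 FPKM with Musclin and 0.393 with vehicle, and Has2, a hyaluronan synthase, at 37.0 and 10.3. Gm26902 stood at 1.97 and 0.773, and Ch25h, the cholesterol 25-hydroxylase, at 30.2 and 9.55. Dhx58os stood at 1.71 and 0.553, and Dhx58, an RNA sensor, at 8.64 and 2.39. Snhg1 and Slc3a2, an amino acid transporter subunit at 85.2 and 175, were lower together. The exceptions were 1110038B12Rik (33.2 and 38.5), beside Hspa1b, a heat shock gene at 27.0 and 7.38, Gm16364 (1.36 and 1.07), which overlaps Fyn at 18.1 and 37.5, and Snhg4, beside a coding gene of the same symbol. Has2os, Gm26902, Dhx58os and Gm16364 are named because of these values. Where a member overlaps its neighbour, reads of the 2 genes may be shared, as given above.

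**Figure D5:**
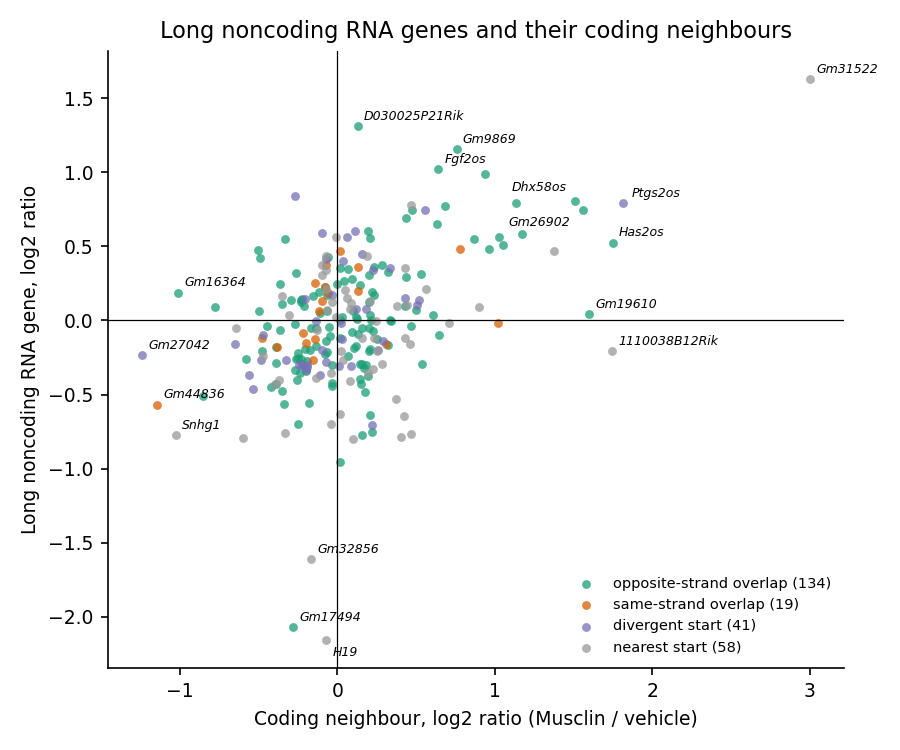
Log2 ratio (Musclin against vehicle, FPKM + 1) of 252 long noncoding RNA genes (y) against that of their coding neighbour (x), coloured by how they lie to each other. Most genes whose neighbour is far to the right, such as Gm31522 beside Ccl2 and Ptgs2os beside Ptgs2, also lie above 0.

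The authors' deposited table marks 29 of the 1093 transcripts of these 343 genes as significant (2.65%), against 3.42% of all 88702 transcripts. The 29 belong to 25 genes, 12 of them listed as up and 17 as down, and 6 of the 12 genes past 2-fold hold a marked transcript. In 1 of the 6, D030025P21Rik, the marked transcript is listed as down (fold 0.283) although the gene was higher. Rian holds 3, all up, of which the transcript ENSMUST00000238253 was at 4.98 FPKM with Musclin and 0.589 with vehicle.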

How the data were processed

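RNA of mouse fibro/adipogenic progenitors, in 2 libraries of cells treated with 1 µM Musclin or vehicle for 24 h, was read from a table with 1 FPKM value per transcript and library, per the file headers. The authors also deposited a fold (ratio), its log2, a p-value and a q-value per transcript, used here only where named. StringTie, DESeq2 and edgeR are listed, without roles or versions, per the submitters' processing notes. No aligner, genome build or strand setting was found in the labels or the table. Of the transcripts of the members found in GENCODE vM21 (GRCm38), 951 of 988 had the same position, so coordinates are given in GRCm38.

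FPKM was summed per gene, and genes at 1 FPKM or more in either library were compared as log2 of the ratio with a pseudocount of 1, counted at 2-fold. Depth was recovered from the steps of FPKM times length in single-exon genes, of which 66.7% (Musclin) and 66.3% (vehicle) came out as whole bases within 0.1. That was too few for a count test, and none was run. Fragment equivalents are aligned bases divided by 298, and exact (Clopper-Pearson) 95% intervals on them cover counting error only, because reads of PCR copies are not independent molecules. Copies were sought with BLAST 2.17.0+ among GENCODE transcripts (95% identity over 100 bases), where 334 of the 343 lead transcripts were found.

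Named were the 12 highest and 12 lowest log2 ratios at 5 FPKM or more, the 12 most abundant genes, every measured member of 9 role lists, up to 4 genes for each list of partner proteins, and the genes nearest the floor. Genes past 2-fold under 5 FPKM, and genes beside a strongly differing neighbour, were added after their values were seen. The members and lists were chosen with earlier results of these data known. Scripts (Python 3.11.15) were tested on simulated data. The closing section gives the alternatives: other pseudocounts, scalings, floors, transcript sets and measures.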

Additional observations from a re-analysis of the deposited data

How the results depend on the processing

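With 1 library per group no difference could be tested, and low levels limit the counts. The 6 higher and 6 lower genes became 27 and 21 with a pseudocount of 0.1, 0 and 3 with a pseudocount of 5, 20 and 18 with FPKM rescaled to TPM, and 27 and 22 in aligned bases with 1 fragment added. At a floor of 5 FPKM there was 1 higher gene, and among members that overlap no coding gene there were 3. Leaving out members that match another gene, an alternative chosen after seeing the data, left 3 lower, with Gm17494, Gm10076 and Gm32856 left out. The median log2 ratio of all members moved by less than 0.1 under every alternative run.

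The median of the snoRNA hosts, -0.20, was -0.51 with long noncoding transcripts only. The median of the inflammation RNAs, 0.36, was 0.19 with a pseudocount of 5, 0.15 in aligned bases, 0.10 at a floor of 5 FPKM and 0.11 with no floor. The median of the microRNA hosts, -0.15, was -0.033 with a pseudocount of 5, 0.13 at the higher floor and -0.014 with none. The adipogenesis and muscle RNAs went from 0.35 to 0.042 in aligned bases and 0.10 with no floor. The imprinted RNAs went from 0.091 to 0.39 at the higher floor. The growth and stress RNAs went from 0.11 to -0.082 at the higher floor and -0.026 with none.

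U90926 reversed, from 1.10 to -0.11, with long noncoding transcripts only, since its processed transcript is then left out. Of the named genes, 5 changed sign in aligned bases (Neat1, Snhg4, Snhg8, Snhg14 and Snhg20), none of them past 2-fold. The other causes were not tested. No paired analysis was possible because each group has 1 library.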

Other observations

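Well-known RNAs on the same role lists did not meet the rule by their transcript types, and their levels are given for completeness. Tug1 stood at 27.8 FPKM with Musclin and 28.4 with vehicle, and Mir22hg, host of miR-22, at 26.9 and 24.3. Firre, an X-linked RNA of nuclear organisation, stood at 3.79 and 6.62. Among snoRNA hosts outside the rule, 2410006H16Rik stood at 13.4 and 22.9, Snhg3 at 1.66 and 1.97, and Snhg11 at 6.67 and 4.71. Xist, a member under the floor, was listed at 0.272 and 0.177 FPKM. Gm27000, a member on the X chromosome, matches Meg3 over 100% of its length.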
